A study of Saccharomyces cerevisiae with 12 samples.

Results

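The data set the RNA of budding yeast lacking SWI1 against wild-type RNA, both from cells grown in the rich medium YPD, on 3 of the 12 arrays of a study of Snf/Swi mutants. The 3 arrays are those titled as experiments 1, 2 and 3 of swi1 in rich medium. Each is a spotted array read in 2 channels, with RNA of the swi1 deletion strain YPS1 in channel 1 and RNA of the wild-type strain FY2 in channel 2. The other 9 arrays hold, 3 each, the snf2 deletion strain FY31 in YPD, YPS1 in minimal medium and FY31 in minimal medium, always beside FY2. What all groups share is FY2 as the other channel. The labels give no mating type, no marker alleles and no other genotype of these strains, and each mutant is a single strain. Whether replicate arrays stand for independent cultures is not said, and the p-values therefore reflect array-to-array spread that may be technical.

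Snf/Swi is a multi-subunit complex that uses ATP to slide or evict nucleosomes, and it is recruited to promoters by sequence-specific activators. SNF2 encodes its ATPase, and SWI1 encodes a large subunit that contacts activators. The complex was found through mutants that could not express HO, needed for mating-type switching, or SUC2, needed for growth on sucrose. Genes of phosphate uptake, of inositol synthesis and of the mating-type programme are among its best-known targets.

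Every value below is a log2 ratio of the swi1 mutant over the wild type, set so that the median gene of each array is 0. The direction is likely but is not stated by the labels: the deposited ratio was read as wild type over mutant and was turned round. This reading rests on the order of the strain names, in which FY2 (channel 2) precedes the mutant, and on ScanAlyze, the scanning software, dividing channel 2 by channel 1. The deleted genes did not settle it, as given below. Were it wrong, each "higher" and "lower" would swap. No array with swapped dyes was used, so a dye bias of a single gene cannot be told apart from a ratio that differs from 0. Errors given as ± are standard errors from limma for means of n = 2 arrays. The spread behind them was estimated for each gene over the 8 arrays of all 4 groups in the fit.

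On experiments 2 and 3, which share an array platform of 8832 probes, 7827 and 7400 probes were measured. Experiment 1 lies on another platform, on which 6196 of 6400 probes were measured. It entered no test and served as a check of sign. Only 2 arrays entered the test, spots of the same gene on an array correlated at r = 0.59 on experiment 2 and r = 0.57 on experiment 3, and signal over background was not analysed here. Experiments 2 and 3 correlated at r = 0.79 across genes, experiments 1 and 2 at r = 0.47, and experiments 1 and 3 at r = 0.42, so experiment 1 stood apart from the other 2. The difference between arrays passed 1 on the log2 scale for 3.46% of 5026 genes between experiments 2 and 3, against 9.03% of genes between experiments 1 and 2.

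Loss of SWI1 in rich medium went with altered levels of a large part of the transcriptome, mostly by less than 2-fold. Of 5026 genes measured on both arrays, 2051 (40.8%) passed an adjusted p of 0.05 in limma, 958 (19.1%) higher and 1093 (21.7%) lower in the mutant. At least 2-fold changes were called for 306 genes (6.09%), 125 higher (2.49%) and 181 lower (3.6%). Left uncentred, the arrays gave 1226 higher and 866 lower calls, so the balance of higher and lower calls rests on the choice of the median gene as 0. When experiment 1 was added in a fit of all 12 arrays with the platform as a random block, 424 of 4841 genes were called, 171 higher and 253 lower. List counts from this fit are to be read beside these, and those without 1 array beside the smaller totals that follow. Leaving out experiment 3 left 1054 calls, and leaving out experiment 2 left 1416.

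Of the genes given by name below as called against wild type, many lost the call with experiment 1 added. In metabolism and transport these were CYS4, SAH1, SAM1, CBF1, CAR2, ARO3, ARO10, HIS4, GAP1, TAT1, CDC19, ENO1, GLK1, EMI2, RGT2, GAL80, SUC2, MAL31, IDH1, IDH2, AAC1, NDE1, PHO81, PHO90, FRE1, SIT1, FET4, URA2, MVD1, URA3 and TRP1. In mating, chromatin, stress and the cell surface they were MF(ALPHA)1, STE6, MFA2, FAR1, PRM5, HTB2, HTZ1, RSC3, RSC30, HSP42, HSP104, TPS1, TSL1, PMA1, LSP1, TIR3, TIR4, FLO5, RPN10 and YRF1-7. ARG7 and COS12 were not measured on experiment 1 and were not tested in that fit. The differences given below for TSL1 and DAL5 lost their call in it too. That fit changed the model of the error as well as the arrays. A lost call is therefore not by itself a sign that experiment 1 differed. SUC2 lost its call with 0.737 and 0.815 on experiments 2 and 3 and 0.705 on experiment 1. HSP42 lost it with 1.57 and 2.01, against -1.39 on experiment 1. Which of the changes took a call away was not tested. Without experiment 3 the calls of AAC1, TAT1, TPS1, HTB2, HTZ1, RSC30, YRF1-7, TSL1, SAM1, MET31, CBF1, HIS4, TDH1, TDH3, GAL80, PHO90, PMA1, FLO10, THI5 and HSP104 were lost. Without experiment 2 those of AAC1, TAT1, MF(ALPHA)1, RSC3, TSL1, SAH1, GAL80, PHO90, STE6, MFA2, HTZ1, TIR4, THI5 and HSP104 were lost.

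The share of genes that kept their sign on experiment 1 rose with the size of the change. Among called genes 1450 of 1978 (73.3%) kept it, against 3003 of 4841 (62.0%) over all genes tested. For called genes of at least 2-fold the share was 241 of 293 (82.3%), with 152 of 173 of those lower and 89 of 120 of those higher.

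The library labels were checked on the deleted gene itself, without a clear answer. SWI1 (YPL016W) has 2 probes that disagreed. The one read -1.33 on experiment 2 and was not measured on experiment 3, and the other read 1.25 and 0.57. The gene's mean was 0.27 ± 0.29 (adjusted p = 0.502), and its ratio on experiment 1 was -0.49. In minimal medium SWI1 read -0.83 and -0.46 in this mutant, and 1.35 on experiment 1. In the snf2 deletion in rich medium SNF2 read 0.69 and 0.65, above the wild type in the direction used here, and -0.68 on experiment 1. The extent of the deletions and the probes' place in the genes are unknown here, and these probes check neither labels nor direction. In the swi1 mutant in rich medium SNF2 read -0.08 and -0.72 on experiments 2 and 3 and -0.21 on experiment 1 (-0.40 ± 0.15, adjusted p = 0.0675). None of the 12 measured genes for Snf/Swi subunits was called in either direction, and their median was -0.11. SNF5, which encodes another core subunit, had 3 probes of different sign and a mean of 0.10.

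The genes furthest above the wild type belonged largely to sulfur amino acid synthesis, and those furthest below it to nitric oxide detoxification, the cell surface, phosphate acquisition and mating. MET17 (YLR303W), the enzyme that joins sulfide to a carbon chain to make homocysteine, read 3.76 and 3.78 on experiments 2 and 3 and 3.00 on experiment 1, so the 3 arrays lay close together. Its fitted ratio was 3.77 ± 0.08 (13.7-fold higher, adjusted p = 8.79e-07). At the other end stood YHB1 (YGR234W), the flavohemoglobin that detoxifies nitric oxide. It read -4.06 and -3.85 on experiments 2 and 3 and -3.43 on experiment 1, and was 15.5-fold lower in the mutant (-3.95 ± 0.09, adjusted p = 8.79e-07).

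Behind MET17 the highest genes were MET3 (YJR010W), LEU2 (YCL018W), CIT2 (YCR005C), MET6 (YER091C), SUL2 (YLR092W), AAC1 (YMR056C), MET13 (YGL125W), RTS3 (YGR161C), ALD4 (YOR374W), SER3 (YER081W) and MET5 (YJR137C), with fitted ratios between 2.25 and 2.86. Behind YHB1 the lowest were ZEO1 (YOL109W), SAG1 (YJR004C), MRH1 (YDR033W), PHO84 (YML123C), YRO2 (YBR054W), ARO9 (YHR137W), YGP1 (YNL160W), HSP12 (YFL014W), MF(ALPHA)2 (YGL089C), QDR2 (YIL121W) and PHO5 (YBR093C), between -3.62 and -2.51. These 24 genes were taken in order of size among called genes with 1 sign on all 3 arrays, so their agreement on experiment 1 comes from the choice. The sizes on experiment 1 were not fixed by it. They stayed beyond 1 in size for all of them but HSP12, at -0.33. AAC1, a mitochondrial ADP/ATP carrier, had ratios of 2.42, 2.60 and 1.78 but the largest standard error of them, 0.58. That error takes in the other groups, and the snf2 mutant in rich medium read 2.58 and 5.70, while the swi1 arrays lay close together. The call of AAC1 was lost without either of experiments 2 and 3.

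**Figure D1:**
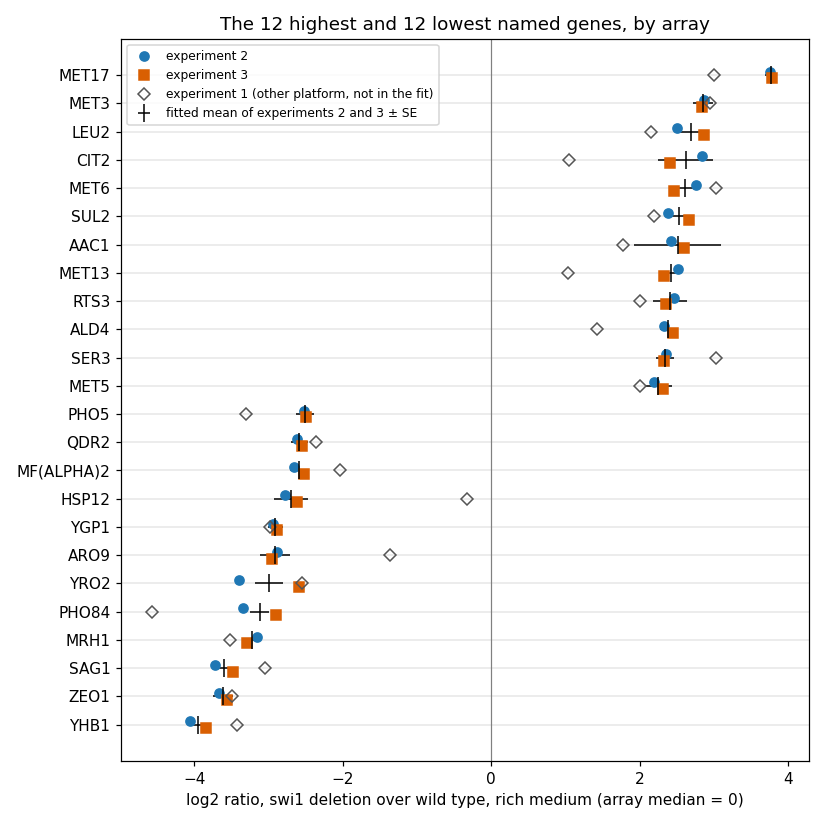
Log2 ratio of the swi1 deletion over wild type in rich medium for the 12 highest and the 12 lowest named genes, one row per gene. Circles are experiment 2, squares experiment 3, open diamonds experiment 1 on another platform, and black ticks the fitted mean of experiments 2 and 3 with its standard error. MET17 stands at 3.77 and YHB1 at -3.95, and experiment 1 lies farthest from the other 2 arrays for HSP12.

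Sulfate is taken up by permeases, activated with ATP, reduced to sulfide and built into homocysteine, which methionine synthase turns into methionine. Along this route 12 of 24 tested genes were called higher in the swi1 mutant and 3 lower, against 19.1% and 21.7% of all genes, and the median was 0.72. The permease gene SUL2 read 2.38 and 2.67 on experiments 2 and 3 and 2.19 on experiment 1 (2.53 ± 0.11, adjusted p = 1.74e-05). MET3, which encodes ATP sulfurylase, the enzyme that activates sulfate, read 2.87 and 2.84, and 2.95 on experiment 1. MET5 and MET10, the subunits of sulfite reductase, had fitted ratios of 2.25 and 1.43. MET13 makes the methyl donor for methionine synthase and MET6 is that synthase. The fitted ratio was 2.42 ± 0.10 for MET13 and 2.61 ± 0.14 for MET6, while on experiment 1 MET13 was lower than on the other arrays at 1.03 and MET6 was not, at 3.03.

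Not all of the route moved. SUL1, the other sulfate permease gene, read -0.03 and 0.29, and MET2 read -0.50 and 0.45 on experiments 2 and 3 but 3.06 on experiment 1. MET16 disagreed between the arrays of the fit, at 1.62 and -0.40. On the way out of methionine, CYS4, which directs homocysteine toward cysteine, fell by 0.83 (adjusted p = 0.00208), and SAH1 and SAM1 were also called lower. Among the 9 permeases and regulators of the pathway 6 were called higher and 2 lower. MMP1, the S-methylmethionine permease, read 2.21 and 1.99, and 2.46 on experiment 1. MET28, a cofactor of the activator Met4, read 2.43 and 1.01, and 3.85 on experiment 1. MET31 and CBF1, which encode DNA-binding partners of Met4, were lower at -0.55 and -0.49, and MET4 itself read 0.18 with no call.

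Arginine and branched-chain amino acid genes also had more higher than lower calls. Of 10 arginine genes 7 were called higher and 1 lower, with a median of 0.83. ARG7 and ARG4, both on the synthesis route, were 3.22-fold and 3.15-fold higher, with ratios of 1.75 and 1.62 for ARG7 and 1.73 and 1.57 for ARG4 on experiments 2 and 3. CAR2, an enzyme of arginine breakdown, fell by 1.51 (adjusted p = 0.000848) and read -1.64 on experiment 1.

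In the branched-chain group 6 of 9 genes were called higher and 2 lower. LEU2 read 2.51 and 2.87, and 2.15 on experiment 1 (2.69 ± 0.18), and its neighbour in the pathway, LEU1, read 1.35 and 1.59, and 2.13 on experiment 1. BAT2, the cytosolic branched-chain aminotransferase, moved the other way at -1.56 and -2.12, and -1.999 on experiment 1. For aromatic amino acids 6 of 12 genes were called higher and 3 lower: ARO3 and ARO1 of the shared synthesis route were higher at 0.87 and 0.80, and ARO9 and ARO10, which break aromatic amino acids down to fusel alcohols, were lower at -2.92 ± 0.20 and -1.14 ± 0.11. Histidine and lysine genes were mixed, with 5 of 15 higher and 2 lower, against 19.1% and 21.7% of all genes. LYS1 read 1.16 and 0.85, while HIS4 read -0.53 and -0.63.

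SER3, the serine synthesis gene known to be silenced by transcription over its promoter when serine is plentiful, read 2.36 and 2.33 on experiments 2 and 3 and 3.03 on experiment 1 (2.35 ± 0.12, adjusted p = 2.54e-05), with all arrays high. SER33, its duplicate, split at 1.88 and -0.17 and was not called. CHA1, the serine and threonine deaminase, was lower at -1.21 and -1.50, and -0.52 on experiment 1.

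Among genes that good nitrogen sources repress, 8 of 17 were called higher and none lower. GAP1, the general amino acid permease, read 1.95 and 1.90 on experiments 2 and 3 but -0.44 on experiment 1, and GLN1, glutamine synthetase, read 1.77 and 1.69 but 0.20 on experiment 1. With experiment 1 in the fit the call of GAP1 was lost, while GLN1 was still called higher, at 1.15. In that fit of all 12 arrays 2 of the 16 genes measured there were called higher, against 171 of 4841 of all genes. Of 15 amino acid permease genes 4 were higher (26.7%) and 3 lower (20%), against 19.1% and 21.7% of all genes. TAT1, a permease of valine, leucine and tyrosine, had the lowest ratios at -2.32 and -2.45, and -1.85 on experiment 1. Its standard error of 0.55 takes in the other groups, of which the snf2 mutant in rich medium read -2.48 and -5.43. The call of TAT1 was lost without either of experiments 2 and 3. BAP2, another branched-chain permease, was lower at -1.16 ± 0.10.

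In central carbon metabolism calls went both ways. Among 21 genes of glycolysis and fermentation 9 were called lower and 6 higher, with a median of -0.11, against 21.7% and 19.1% of all genes. With experiment 1 in the fit 5 of 21 were lower and none higher, against 253 and 171 of 4841 over all genes. The lower ones included CDC19, pyruvate kinase, at -0.92, the enolase genes ENO1 and ENO2 at -0.85 and -0.84, and the glyceraldehyde phosphate dehydrogenase genes TDH1, TDH2 and TDH3 at -0.77, -0.89 and -0.60. ENO1 and ENO2, and the TDH genes, are near-identical in sequence, and probes may not separate them. The same genes were also below 0 on experiment 1, between -1.11 and -0.56. Among the higher ones GLK1, glucokinase, read 2.08 and 2.13 on experiments 2 and 3, and its relative EMI2 read 1.44 and 1.53, although experiment 1 gave -0.54 and -0.22.

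Hexose transporter genes were split, with 4 of 14 higher and 4 lower (28.6% each), against 19.1% and 21.7% of all genes. HXT1, the low-affinity transporter induced by high glucose, read -1.21 and -1.15, and -1.43 on experiment 1. HXT3 read -1.18 and -1.07, and -2.06 on experiment 1, and HXT6 was likewise low on all 3 arrays. The sensor gene RGT2 was higher at 0.72 ± 0.13. HXT genes are close copies of one another, so their values may share signal.

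Of 15 genes for sucrose, maltose and galactose use 8 were called higher and 1, GAL80, lower. SUC2, which encodes invertase and gave the complex its sucrose name, read 0.74 and 0.81 on experiments 2 and 3 and 0.70 on experiment 1 (0.78 ± 0.10, adjusted p = 0.00131), so it was slightly above the wild type on every array in this glucose medium. MAL32, a maltase gene with near-identical copies, was 3.39-fold higher at 1.69 and 1.83, and 1.78 on experiment 1. MAL31, a maltose permease gene, read 1.34 and 1.30 but -0.06 on experiment 1.

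The retrograde response raises genes that supply citrate and glutamate precursors when mitochondrial function is reduced. In the list of the TCA cycle and this response 11 of 22 genes were called higher and 1 lower, with a median of 0.35. CIT2, the peroxisomal citrate synthase and its usual marker, read 2.84 and 2.41, and 1.05 on experiment 1, through the only 1 of its 2 probes that was measured. DLD3, a lactate dehydrogenase of the same response, read 2.30 and 2.13, and 1.69 on experiment 1 (2.22 ± 0.11, adjusted p = 2.08e-05). The isocitrate dehydrogenase genes IDH1 and IDH2 were higher at 1.33 and 1.07, but IDH2 read -0.15 on experiment 1. Gluconeogenesis, glyoxylate and acetate genes had 10 of 17 higher and 1 lower. Most of these changes were under 2-fold, ALD4, mitochondrial aldehyde dehydrogenase, being the exception at 2.32 and 2.45, and 1.42 on experiment 1. Leaving out experiment 3 lowered the higher counts of that list and of the TCA list, as over all genes. With experiment 1 in the fit 6 of 16 were higher in the gluconeogenesis list and 4 of 22 in the TCA list. Of all genes 171 of 4841 were higher there.

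Of all genes 21.7% were lower, and 253 of 4841 with experiment 1 in the fit. Of 32 respiratory chain genes 11 (34.4%) were lower and 1 higher. The lower count fell when either of experiments 2 and 3 was left out, as it did over all genes. It was 2 of 30 with experiment 1 in the fit. CYC1, cytochrome c, read -1.21 and -1.12, and -1.24 on experiment 1. NDE1, the external NADH dehydrogenase, was lower at -0.95 ± 0.11.

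**Figure D2:**
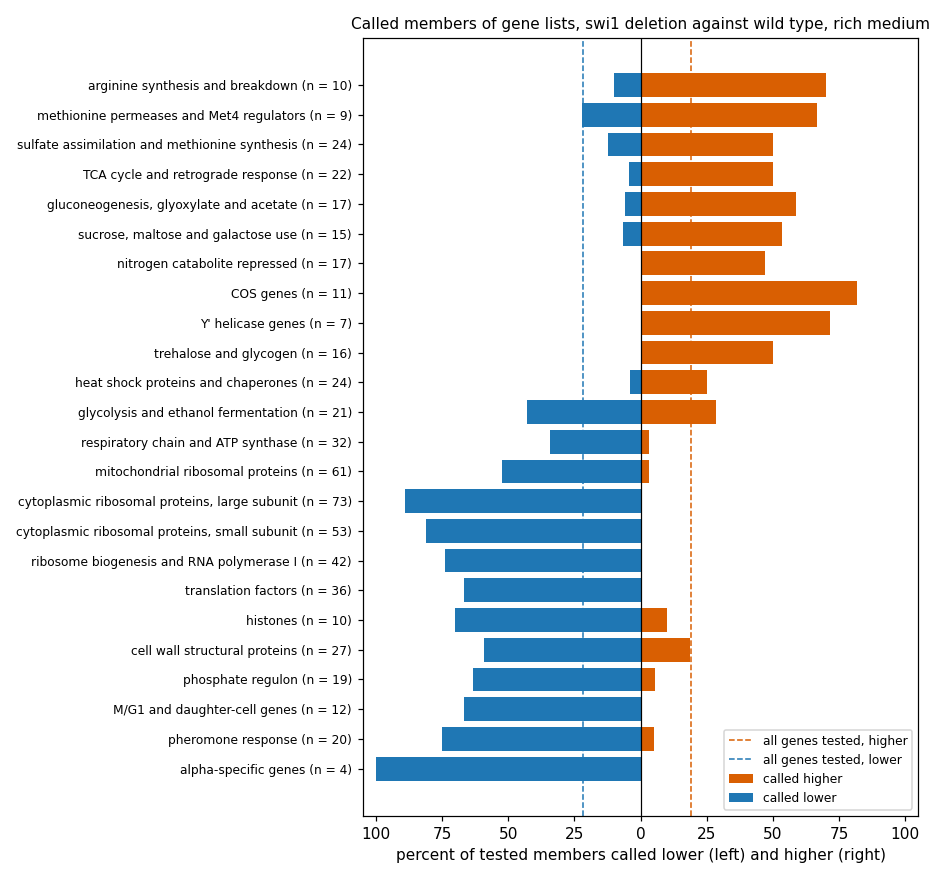
Percent of the tested members of 24 gene lists that were called lower (bars to the left) and higher (bars to the right) in the swi1 deletion against wild type in rich medium. Dashed lines mark the percentages over all 5026 genes tested, and the number of tested members stands beside each name. The arginine, sulfur and COS lists lie to the right, and the ribosomal, pheromone and phosphate lists to the left.

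Phosphate-starvation genes were among the most reduced. The phosphate list holds genes that the activator Pho4 switches on when phosphate is scarce, and others such as the low-affinity transporter gene PHO90. Of its 19 tested genes 12 were called lower, 8 of them at least 2-fold, and 1 higher, against 3.6% of all genes lower by 2-fold. PHO84, the high-affinity phosphate transporter, read -3.35 and -2.90 on experiments 2 and 3 and -4.57 on experiment 1 (-3.12 ± 0.13, 8.69-fold lower, adjusted p = 1.61e-05). PHO5, the secreted acid phosphatase whose promoter chromatin is a textbook case, read -2.52 and -2.50, and -3.30 on experiment 1. PHO11, PHO12 and PHO3, close copies of PHO5 whose probes may share its signal, had fitted ratios of -2.45, -2.35 and -2.32. All 3 arrays were low for each of these genes.

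Other steps of the same pathway followed in part. SPL2, which restrains low-affinity transport, and PHO81, the inhibitor that transmits the starvation signal, were lower at -2.13 ± 0.24 and -1.05 ± 0.13. VTC1 and VTC2, of the polyphosphate polymerase complex, were lower at -0.87 and -0.72. The low-affinity transporter genes were not all alike: PHO90 was lower at -0.40, and PHO87 and PHO91 read 0.19 and 0.06 with no call. The vacuolar alkaline phosphatase gene PHO8 read 0.15 and 0.37, and -0.82 on experiment 1.

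Genes that mark alpha cells were also low. SAG1, the alpha-agglutinin that binds a cells, read -3.73 and -3.48, and -3.05 on experiment 1 (-3.61 ± 0.12, 12.2-fold lower, adjusted p = 7.11e-06). MF(ALPHA)2, a gene for the alpha-factor pheromone, read -2.66 and -2.52, and -2.04 on experiment 1. STE3, the a-factor receptor, read -1.83 and -1.58, and -1.26 on experiment 1. MF(ALPHA)1, the major alpha-factor gene, was least reduced at -0.90 and -0.61, and its call was lost without experiment 2. All 4 alpha-specific genes were thus called lower, and each read below 0 on all 3 arrays. Of the 6 measured a-specific genes 1, STE6, was called higher at 0.43 and 1, MFA2, was called lower, on arrays that disagreed at -2.41 and -0.41. The other 4 lay between -0.17 and 0.27. In bulk RNA, fewer cells of a type and less RNA per cell cannot be told apart. The 17 tested genes of meiosis and sporulation had 2 higher and 1 lower calls and a median of 0.01.

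Of 20 genes of the pheromone response, which is driven by Ste12 in both mating types, 15 were called lower and 1 higher, with a median of -0.66. AGA1, the anchor of a-agglutinin, read -2.80 and -2.19, and SST2, which ends the signal, read -2.07 and -2.08. FUS3, the MAP kinase of the pathway, was lower at -1.57 ± 0.08, and FAR1, which arrests the cycle in response to pheromone, at -1.22 ± 0.08. Experiment 1 showed much less of this: its median over the list was -0.05, with AGA1 at -1.55, FUS3 at -0.99 and FAR1 at 0.02. In the fit of all 12 arrays 3 of 19 pheromone genes were called lower, against 253 of 4841 of all genes. PRM5 was the member called higher, at 1.23.

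Daughter-cell genes, which are switched on as cells divide, were also reduced. Of 12 tested genes of this list 8 were called lower, none higher, and 7 of the 8 at least 2-fold. DSE1 read -1.68 and -1.83, and -1.35 on experiment 1. ASH1, which represses HO in daughter cells, read -1.32 and -1.47, and -1.10 on experiment 1, and EGT2, a cell separation gene, read -1.24 and -1.33, and -1.49 on experiment 1. HO (YDL227C) itself, measured by 4 probes, read 0.20 and 0.10, and -0.69 on experiment 1, with no call (0.15 ± 0.11, adjusted p = 0.312). In the CLB2 cluster of mitotic genes 2 of 9 were lower, near the 21.7% of all genes, with CLB1, a mitotic cyclin, at -2.26 ± 0.10 beside CLB2 at -0.16. The G1/S list was close to the background at 3 higher and 7 lower of 25.

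Cytoplasmic ribosomal protein genes were lower almost throughout, by modest amounts, and other genes of protein synthesis in smaller shares. For the large subunit of the cytoplasmic ribosome 65 of 73 genes were called lower and none higher, with a median of -0.72. For the small subunit 43 of 53 were lower and none higher, with a median of -0.63. The largest reductions were RPL8B at -1.17 and RPS26B at -1.10. Many ribosomal protein genes exist as near-identical pairs that a probe may not separate, so the counts are not of independent genes.

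Ribosome biogenesis and RNA polymerase I genes had 31 of 42 lower and none higher, with a median of -0.79. DBP9, a helicase of large-subunit assembly, read -1.10 and -1.40, and -0.51 on experiment 1. Translation factors had 24 of 36 lower, led by EFB1, an elongation factor subunit, at -1.28 ± 0.11. Mitochondrial ribosomal proteins had 32 of 61 lower and 2 higher, with a median of -0.39. Aminoacyl-tRNA synthetases had 7 of 19 lower and none higher. The cytoplasmic ribosomal medians on experiment 1 were -0.52 and -0.53, and the median of the biogenesis list was -0.28 there. Without centring, 63 of 73 large-subunit genes stayed lower and 1 was higher. With experiment 1 in the fit 253 of 4841 of all genes were lower, a share near that of translation factors and synthetases there. In that fit the lower counts were 35 of 66 for the large subunit, 20 of 46 for the small subunit and 10 of 42 for biogenesis. They were 2 of 35 for translation factors, 1 of 18 for synthetases and none of 56 for mitochondrial ribosomal genes. Without experiment 3 fewer members of each of these lists were lower, as over all genes. The share of synthetases then lay near that of all genes.

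Histone genes followed at a similar size, with 7 of 10 lower and 1 higher. HTA2 and HTB2, an H2A and an H2B gene, were lowest at -0.94 and -0.84, while HTZ1, the H2A variant, was higher at 0.32. Among 16 genes of RSC and other remodellers 5 were lower, against 21.7% of all genes, RSC30 at -0.72 and RSC3 at -0.46 being among them. Of all genes, 253 of 4841 were lower with experiment 1 in the fit. Without experiment 3 the lower counts of both lists fell, as they did over all genes. With experiment 1 in the fit they were 3 of 10 histone genes and none of 16 remodeller genes.

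At the cell surface a small number of genes fell steeply beside many that did not. ZEO1, a membrane protein linked to wall integrity, read -3.67 and -3.56, and -3.50 on experiment 1, 12.3-fold lower. MRH1, a membrane protein related to Hsp30, was measured by 2 probes that agreed between -3.35 and -3.15, and experiment 1 gave -3.53. Its paralog YRO2 read -3.40 and -2.59, and -2.55 on experiment 1. In the same list of 12 surface genes the proton pump gene PMA1 was lower at -0.70, LSP1 of the eisosome was higher at 0.78, and HSP30 read 0.06 and 0.33, and -3.50 on experiment 1.

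Cell wall structural genes had 16 of 27 lower (59.3%) and 5 higher (18.5%), against 21.7% and 19.1% of all genes. Their higher share was thus near that of all genes. YGP1 read -2.94 and -2.88, and -2.99 on experiment 1. SED1, a wall mannoprotein, was lower at -2.43 ± 0.17, TIP1 at -2.09 ± 0.11, and CRH1, a chitin cross-linking enzyme, was higher at 1.06 ± 0.14. Of the cold-shock mannoprotein genes TIR1 to TIR4 all 4 were lower, between -1.58 and -0.88. The flocculin genes FLO5, FLO9 and FLO10 were higher, between 0.66 and 0.84. FLO genes share long repeats, which probes may not separate.

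Transporters that export drugs and polyamines had 6 of 17 lower (35.3%) and 4 higher (23.5%), against 21.7% and 19.1% of all genes. QDR2 was lowest at -2.62 and -2.55, and -2.36 on experiment 1, followed by TPO1, a polyamine exporter, at -1.97 ± 0.12. In iron and copper uptake 8 of 24 were higher (33.3%) and 7 lower (29.2%), to be read beside the same shares. FRE1, a metal reductase, and SIT1, a siderophore transporter, were lower at -1.32 and -1.30, and FET4, the low-affinity iron transporter, was higher at 1.05. YHB1 apart, the oxidative and nitrosative stress list was led by GPX2, a glutathione peroxidase, at -2.32 and -2.48, and -2.39 on experiment 1. The rest of that list lay between -0.57 and 0.61.

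Over all genes 19.1% were called higher and 21.7% lower, and the counts of this paragraph are to be read beside these shares. Vitamin and cofactor genes were higher in small numbers. For thiamine and pyridoxine 5 of 17 were higher and none lower, including THI5, THI11 and THI13 between 1.37 and 1.65. These are near-identical copies, so they stand for little more than a single signal. Experiment 1 gave them much larger ratios, 3.54, 5.28 and 5.997. For NAD synthesis 5 of 11 were higher, led by BNA2, the dioxygenase that opens the pathway from tryptophan, at 1.98 and 2.25, and 7.58 on experiment 1. Ergosterol synthesis had 7 of 22 higher and 3 lower, with ERG5 at -1.50 and MVD1 at 0.80. Purine and pyrimidine synthesis had 4 of 23 higher and 7 lower, with URA2 at 1.51 (-0.46 on experiment 1) and AAH1 at -1.31. In phospholipid synthesis 3 of 23 were higher and 4 lower, both under the shares of all genes. INO1, the inositol synthase gene long tied to Snf/Swi, read 0.14 and 0.76 with no call, and 3.05 on experiment 1. Proteasome genes had 6 of 30 higher (20%), near the share of all genes, and 1 lower, RPN10 at -1.41. Their activator RPN4 was higher at 0.94.

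Genes of stress and storage carbohydrate had opposite signs on experiment 1 and on experiments 2 and 3. Trehalose and glycogen genes had 8 of 16 higher and none lower in the fit, with medians of 0.36 and 0.38 on experiments 2 and 3 but -0.64 on experiment 1. For general stress genes these medians were 0.10 and 0.33, against -0.79 on experiment 1. HSP42, a small heat shock protein, read 1.57 and 2.01, but -1.39 on experiment 1, and HSP104, the disaggregase, read 1.21 and 1.58, but -1.26. TPS1, trehalose phosphate synthase, read 0.78 and 1.503, and -0.20. With experiment 1 in the fit 1 of 16 trehalose and glycogen genes was called higher, no general stress gene was, and both medians turned negative, to -0.38 and -0.50. Other lists still had calls in that fit, in which 171 of 4841 of all genes were higher and 253 lower. There 10 of 22 sulfur, 4 of 9 arginine and 5 of 9 branched-chain genes were higher. Lower were 9 of 19 phosphate, 3 of 4 alpha-specific, 8 of 12 daughter-cell and 9 of 27 cell wall genes. Of 14 sucrose, maltose and galactose genes 2 were higher. Without experiment 3 no trehalose or glycogen gene was called.

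A few stress genes were low on all 3 arrays instead. HSP12 read -2.78 and -2.62, and -0.33 on experiment 1, DDR48 was lower at -1.99 ± 0.09 with -1.62 on experiment 1, and YGP1 belongs here too. As the only array of this group on its platform, experiment 1 does not let the platform, the culture and the hybridisation be told apart.

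**Figure D3:**
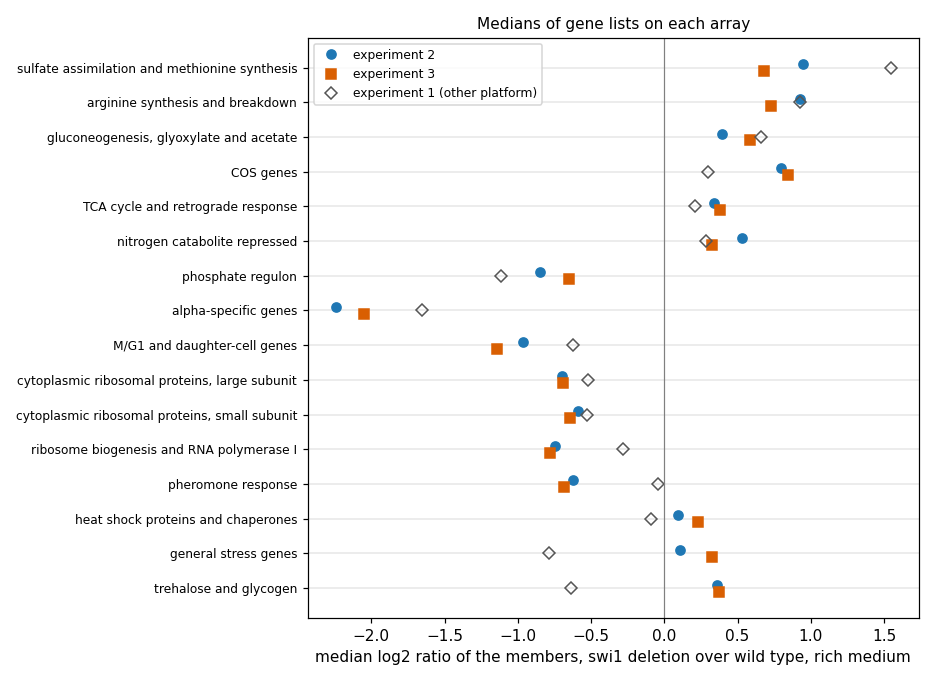
Median log2 ratio of the members of 16 gene lists on each of the 3 arrays, swi1 deletion over wild type in rich medium. Circles are experiment 2, squares experiment 3 and open diamonds experiment 1 on another platform. The lists of sulfur, phosphate and ribosomal genes keep their side of 0 on all 3 arrays, while the general stress and trehalose lists lie at -0.79 and -0.64 on experiment 1 and above 0 on experiments 2 and 3.

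In a grouping by gene order that was added after the data had been seen, genes near chromosome ends were higher more often than others. Silencing by the Sir proteins and the Y' and COS repeat families are features of these regions. Among the 5 outermost genes of each end 58.6% of 128 tested genes were called higher and 7.81% lower, with a median of 0.56, and the median was 0.49 on experiment 1. For genes 6 to 10 the shares were 39.0% higher and 9.76% lower of 123, and for genes 11 to 15 they were 24.4% and 23.6% of 127. From gene 16 inward the higher share lay between 14.5% and 17.5%, under the 19.1% of all genes. Leaving out the COS and Y' helicase genes, which are near-identical copies, the outermost bin still had 55.9% of 111 genes higher.

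The COS family, named for its conserved sequence and found mainly at these ends, had 9 of 11 genes higher. COS12 was highest at 2.26 and 2.33, and the other 8 lay between 0.68 and 0.91, while COS1 read -1.14 with no call. The median of the family was 0.80 on experiment 2, 0.84 on experiment 3 and 0.30 on experiment 1. Of 7 Y' helicase genes 5 were higher, up to 1.09 for YRF1-7, whose call was lost without experiment 3. With experiment 1 in the fit 3 of 10 COS genes and 1 of 7 Y' helicase genes were called higher, against 171 of 4841 of all genes. The genes within 10 of an end had a median of 0.39 on experiments 1 and 2 and of 0.45 on experiment 3, and 123 of 251 were called higher. In the fit with experiment 1, 42 of 235 of them were called higher, a share still above that of all genes in that fit. Leaving out experiment 3 also lowered the count of 123, as it did the higher count over all genes. Positions here are gene order in the reference annotation, counted from the nearer end, and repeat families at the ends can share signal on probes.

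**Figure D4:**
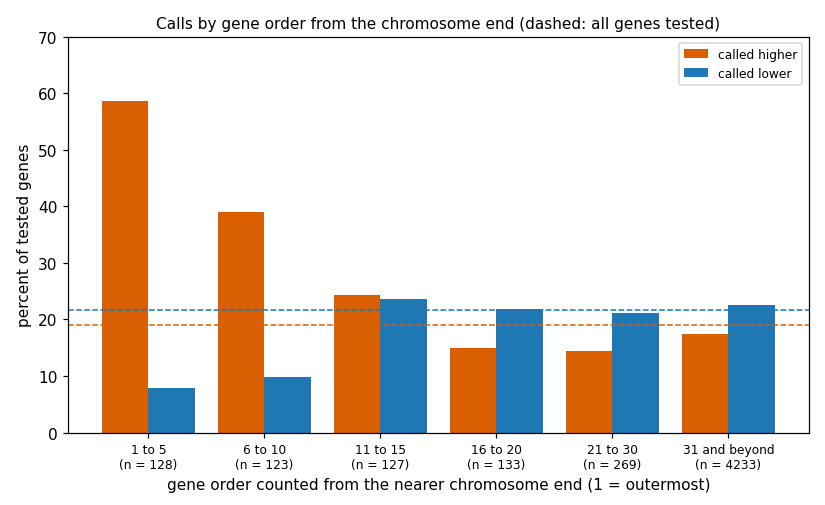
Percent of tested genes called higher and called lower in the swi1 deletion in rich medium, by gene order counted from the nearer chromosome end. Dashed lines are the percentages over all genes tested. The higher share is 58.6% for the 5 outermost genes and falls to 15.04% for genes 16 to 20.

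Genes often used as strain markers were looked at because marker alleles of the strains are not given. Of 8 such genes 6 were higher and 1 was lower. MET17 and LEU2 have been described above, HIS3 read 0.79 and 0.94, TRP1 read 0.75 and 0.55, and URA3 read -0.71 and -0.96, with -0.83 on experiment 1. Their part in the pathway counts was not tested.

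The swi1 and snf2 mutants were compared in rich medium because both lack a subunit of the same complex. Both were hybridised against FY2, so a bias of the wild-type channel could be shared. The difference of the 2 mutants, in the same fit, passed the threshold for 1 of 3397 genes (0.0294%), with 226 genes under an unadjusted p of 0.05. That gene was TSL1, a large subunit of the trehalose synthase complex. In the swi1 mutant it read 0.43 and 0.23, against 2.06 and 2.12 in the snf2 mutant, and on experiment 1 -1.32 in the swi1 mutant, against 0.21 in the snf2 mutant. The difference was -1.76 ± 0.14 (adjusted p = 0.00861), and its call was lost when only the arrays of these groups entered the fit (adjusted p = 0.281) and with experiment 1 added (adjusted p = 0.313). Leaving out 1 array at a time gave between 7 and 66 called genes. SER3 came next, at 2.36 and 2.33 in the swi1 mutant, against 3.87 and 3.72 in the snf2 mutant, a difference of -1.45 ± 0.17 that did not pass (adjusted p = 0.0586).

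Across all genes the size of the difference had a median of 0.15 and a 95th percentile of 0.64. On simulated data with 72 2-fold and 68 4-fold differences planted, the test found 77.8% of the 2-fold ones. That many true differences make the adjusted threshold easier to pass, so this share is likely too high where 1 gene is called. SNF2 itself differed by -1.07 and was not called (adjusted p = 0.381), so a 2-fold difference in a given gene can be missed. Snf2 rich experiment 3 had 40.0% of its probes missing, and genes unmeasured there were not tested. By their means, all 12 of the highest genes were also at least 2-fold higher in the snf2 mutant, and the 8 of the 12 lowest that could be set beside it were at least 2-fold lower. MET17 read 3.76 and 3.78 in the swi1 mutant, against 3.79 and 3.79 in the snf2 mutant. YHB1 read -4.06 and -3.85 in the swi1 mutant, against -4.06 and -4.07 in the snf2 mutant. PHO84 read -3.35 and -2.90 in the swi1 mutant, against -3.69 and -3.90 in the snf2 mutant. LEU2 read 2.51 and 2.87 in the swi1 mutant, against 1.25 and 1.99 in the snf2 mutant, and this difference was not called (adjusted p = 0.523).

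The effect of the swi1 deletion was then set against its effect in minimal medium. Between rich and minimal medium the effect differed for 306 of 4890 genes (6.26%), 205 with a higher ratio in rich medium (4.19%) and 101 with a lower one (2.07%). With experiment 1 added 91 genes were called, without experiment 3 in minimal medium 113, and with only these 2 groups in the fit 179. In 110 of the 205 and 46 of the 101 the mean ratio had opposite signs in the 2 media. Of the 205, 130 were called higher than wild type in rich medium and 38 lower, so the group mixes genes raised in rich medium with genes reduced less there than in minimal medium. Of the 101, 80 were called lower in rich medium.

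Sulfur genes made the first kind. MET17 read 3.76 and 3.78 in rich medium, against 0.96 and 0.94 in minimal medium, a difference of 2.82 ± 0.12 (adjusted p = 3.25e-05). MET6 read 2.75 and 2.46 in rich medium, against -0.40 and -0.05 in minimal medium. The difference was called higher for 12 of 22 genes of sulfate assimilation and methionine synthesis, and for 6 of 9 arginine genes, against 4.19% of all genes. The arginine list had a median of 0.83 in rich medium and of -0.38 in minimal medium.

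Nitrogen-repressed genes gave the widest gaps. GAP1 read 1.95 and 1.90 in rich medium, against -2.08 and -2.003 in minimal medium, a difference of 3.97 ± 0.13 (adjusted p = 3.25e-05). On experiment 1 the gap was not seen, with -0.44 in rich medium and -0.65 in minimal medium. The 4 copies of ASP3, which encode the cell-wall asparaginase and cannot be told apart by sequence, had differences from 4.46 to 4.73. They read between 0.35 and 0.94 in rich medium, against -4.00 to -3.61 in minimal medium, and experiment 1 gave -0.05 to 0.23 in rich medium and -3.09 to -2.66 in minimal medium. DAL5, the allantoate permease, read 0.53 and -0.94 in rich medium, against -4.65 and -4.33 in minimal medium. For this gene the rich-medium level did not differ detectably from wild type, and the gap came from minimal medium. In all, the difference was called higher for 8 of 17 nitrogen-repressed genes, against 4.19% of all genes.

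Phosphate genes and YHB1 made the opposite kind, low in rich medium and little changed in minimal medium. YHB1 read -4.06 and -3.85 in rich medium, against -0.61 and -0.59 in minimal medium. PHO84 read -3.35 and -2.90 in rich medium, against -0.53 and -0.29 in minimal medium, and on experiment 1 -4.57 in rich medium, against 0.91 in minimal medium. PHO5 read -2.52 and -2.50 in rich medium, against -0.39 and -0.35 in minimal medium. The difference was called lower for 7 of 19 phosphate genes, against 2.07% of all genes. ARO9 behaved like them, at -2.88 and -2.95 in rich medium, against 0.33 and 0.21 in minimal medium.

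**Figure D5:**
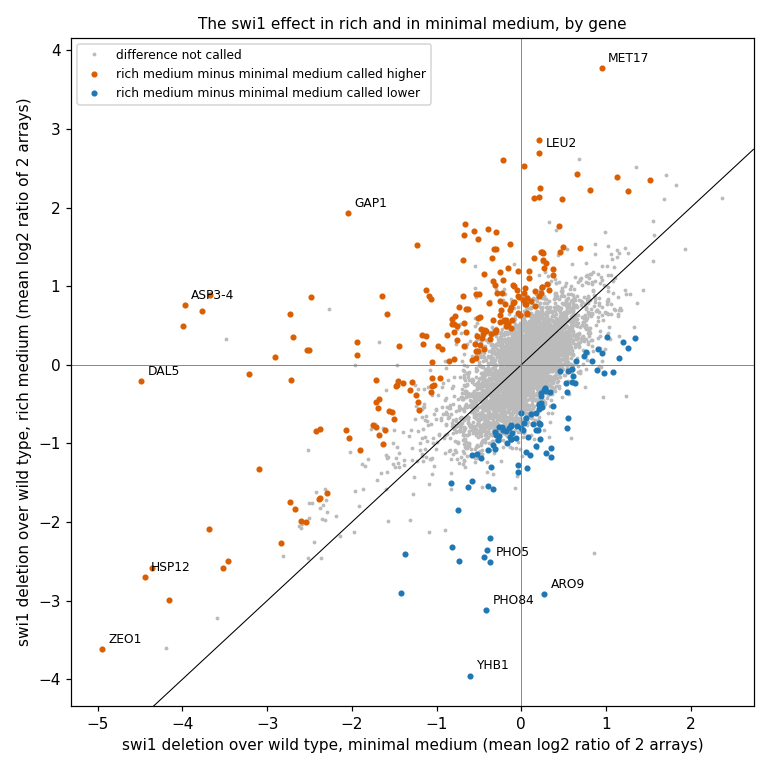
Mean log2 ratio of the swi1 deletion over wild type in rich medium (vertical axis) and in minimal medium (horizontal axis), 1 point per gene, each the mean of experiments 2 and 3. Orange points are the 205 genes whose rich minus minimal difference was called higher, blue points the 101 called lower, grey points all others, and the black line marks equal ratios. MET17 and GAP1 lie above the line, and YHB1, PHO84, PHO5 and ARO9 below it.

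Other changes had the same sign in both media. SAG1 read -3.73 and -3.48 in rich medium, against -4.01 and -4.39 in minimal medium, and MRH1 read -3.16 and -3.29 in rich medium, against -3.52 and -3.67 in minimal medium. ZEO1 was even lower in minimal medium, at -3.67 and -3.56 in rich medium, against -5.06 and -4.83 in minimal medium, and QDR2 and HSP12 showed the same order. The difference was called for none of 73 large-subunit ribosomal protein genes, whose medians were -0.72 in rich medium and -0.56 in minimal medium, and for none of the COS genes, with medians of 0.83 in rich medium and 0.58 in minimal medium. The pheromone list had medians of -0.66 in rich medium and -0.44 in minimal medium. Of its 19 tested differences 2 were called, both higher, against 4.19% of all genes.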

How the data were processed

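RNA of swi1 deletion and wild-type yeast was compared on 3 two-channel spotted arrays among 12 in the series. Per the labels, images were read with ScanAlyze, and the authors deposited 1 log2 ratio per probe and array; how arrays were normalized is not given in the labels. The base of the logarithm is not named: on experiments 2 and 3, 17.1% and 15.1% of values lay on log2 ratios of small whole numbers, against 6.50% and 6.88% after a shift, and for experiment 1 (7.05% against 7.21%) base 2 was taken over.

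Each array was turned to mutant over wild type and centred on its median gene, and probes of a gene were averaged. Of 8832 probes 6956 carried a gene name, for 5574 genes, 1259 with more than 1 probe. Names and gene order came from the RefSeq table of assembly R64. Spots of the same gene correlated at r = 0.59 on experiment 2 and r = 0.57 on experiment 3. Arrays missed 11.4% and 16.2% of probes there and 3.19% on experiment 1.

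The test was limma 3.58.1 in R 4.3.3 (lmFit and eBayes, two-sided) on experiments 2 and 3 of all 4 groups, 8 arrays with 1 mean per group. Genes had to be measured on both arrays of each group in a contrast, and Benjamini-Hochberg adjusted p-values under 0.05 over all genes tested were called. Every adjusted p in the text comes from this fit. The median standard error was 0.12, and the smallest called ratio was 0.26. On simulated data 89% of 2-fold changes against wild type were recovered among 5026 genes, with 16 false calls. For the difference to minimal medium 78.8% were recovered among 4890 genes.

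The members and the 51 gene lists were chosen with earlier results of these data known. The grouping by gene order from the chromosome ends is not among the 51 and was added after the data had been seen. Named genes were the 12 highest and 12 lowest called genes with 1 sign on all 3 arrays, the 2 largest called members of each list with at least 3 called, a set of Snf/Swi-related and marker genes, and the 6 largest called differences each way. Further list members were named as examples after their values were seen. No sequence or genome was used here. Alternatives changed the centring, scale, probe choice, variance, arrays, gene filter and replicates; figures were drawn with matplotlib 3.10.9.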

Additional observations from a re-analysis of the deposited data

Results flagged for a closer look

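Between the swi1 and the snf2 deletion in rich medium, the test of the difference called TSL1, at -1.761 on the log2 scale, and no other of 3397 genes. That call was lost with only the arrays of these groups and with all 12 arrays. In simulated data with many planted differences 77.8% of the 2-fold ones were recovered, a share likely too high for this contrast. Genes without a call may therefore still differ. The values below are differences of log2 ratios of the same mutant, rich minus minimal medium, each called in the limma contrast of the 2 media.

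Among amino acid and sulfur genes the difference was 2.821 for MET17, 2.654 for MET3, 2.828 for MET6, 2.496 for SUL2, 1.772 for MET13, 2.029 for MET5, 0.8305 for SER3 and -1.323 for CHA1. It was 2.474 for LEU2, 1.992 for ARG7, 2.333 for ARG4, 1.086 for LYS1, -1.097 for BAT2 and -3.188 for ARO9. Nitrogen genes had 3.973 for GAP1, 2.123 for GLN1, 0.934 for CAN1, 4.279 for DAL5, and 4.731, 4.564, 4.48 and 4.457 for ASP3-4, ASP3-2, ASP3-3 and ASP3-1. The ASP3 copies are near-identical and count as little more than 1 signal.

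Phosphate genes had -2.707 for PHO84, -2.139 for PHO5, -2.007 for PHO11 and -1.952 for PHO12. The difference of PHO12, whose copies may share signal, was among those lost when single arrays were left out. In mating the values were 0.932 for MF(ALPHA)2, 0.68 for STE3 and 0.9685 for AGA1, all of which were low in both media and less so in rich medium.

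Carbon and respiration gave 1.628 for GLK1, 1.313 for MAL32, 0.969 for SUC2, 0.9545 for DLD3, 1.262 for ALD4, 1.474 for SIP4, -1.52 for CYC1, -1.167 for NDE1 and -0.611 for MRPL3. The stress and surface genes gave -3.349 for YHB1, -1.027 for GPX2, 2.454 for HSP42, 1.165 for HSP78, 1.746 for HSP12, 1.329 for ZEO1, 1.163 for YRO2, -1.494 for YGP1, 1.779 for QDR2, -1.247 for TIR2 and -1.143 for TIR3. The remaining values were -1.389 for FRE1, -0.935 for SIT1, 1.391 for BNA3, -0.6635 for ERG5 and 0.784 for RPN4.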

How the results depend on the processing

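Against wild type, 2051 genes were called. The count stayed within 1.5 times of this under each alternative except all 12 arrays with the platform as a random block, which gave 424 (169 at 2-fold or more, against 306), and the fit without experiment 3; leaving out 1 array gave 1054 to 1416. For the difference to snf2, 1 gene was called, and 2 without centring, 2 with robust variance, 18 with genes measured on at least 1 array per group, 0 with only the arrays of the contrast (168 at an unadjusted p under 0.05), 0 with all 12 arrays (343 unadjusted), and 7 to 66 without 1 array. For the difference to minimal medium, 306 were called, 179 with only the arrays of the contrast, 91 with all 12 arrays and 113 to 311 without 1 array. The share of called genes keeping their sign on experiment 1 was 73.3%, 75.52% with arrays scaled to a common spread, 76.26% with only the arrays of the contrast and 73.33% to 80.85% without 1 array. SNF5 reversed with 1 probe per gene, to -0.5635 (limma, adjusted p = 0.0339). Of the values named by rule 39 lost their call with all 12 arrays, 8 without experiment 2 and 14 without experiment 3. The median changed sign for 12 lists with all 12 arrays for 6 without centring and for 6 without experiment 3. The cause of these shifts was not tested. Among experiments 2 and 3, same-numbered arrays did not deviate together (r from -0.0313 to 0.0193), so these numbers were not used as pairs. Experiment 1 was not covered. In minimal medium the swi1 and snf2 arrays of experiment 1, on 1 platform, correlated at r = 0.71. Swi1 experiment 1 correlated at 0.47 and 0.48 with its own experiments 2 and 3 there. In rich medium the swi1 and snf2 arrays of experiment 1, also on 1 platform, correlated at r = 0.41. Swi1 experiment 1 in rich medium correlated at 0.47 and 0.42 with its own experiments 2 and 3. With the experiment number as a replicate block 1865, 1 and 211 genes were called in the 3 comparisons. The limits are 2 arrays per group, a direction taken as likely, no known dye swap, and signal over background not analysed here.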
